A study of Homo sapiens with 18 samples.

Results

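The 10 human Frizzled genes, FZD1 to FZD10, encode the seven-pass membrane receptors for Wnt ligands, and all 10 are among the 57500 genes of the expression table. They were taken by gene name. They had been proposed because of how they moved in the comparisons described here, so their levels and differences are given as a description, without p-values. RNA was measured in 18 libraries, 3 in each of 6 groups: SNU2535 with 3 µM TRI-611 for 3 h and with DMSO, its solvent control, for 3 h, and the same pair of treatments for NCI-H3122 and for NCI-H2228. These are established human cell lines from non-small cell lung cancer, each known to carry an EML4-ALK fusion, and every group is labelled as wild type. TRI-611 is given as a molecular glue that degrades ALK, which means that it recruits the ALK protein to the cell's disposal machinery; ALK protein was not measured here, and ALK RNA is no check of protein loss. The labels do not state whether replicate libraries are separate cultures, so SDs and tests measure the spread between these libraries, which may be technical.

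Frizzled proteins bind lipid-modified Wnt ligands through an extracellular cysteine-rich domain. Together with the co-receptors LRP5 and LRP6 they stabilise β-catenin, which then activates target genes with TCF and LEF factors, and with ROR or RYK they feed pathways that control cell polarity and movement. The ubiquitin ligases ZNRF3 and RNF43 remove Frizzled proteins from the cell surface, and R-spondins bound to LGR receptors block that removal. Sequence similarity places FZD1, FZD2 and FZD7 together, FZD5 with FZD8, FZD3 with FZD6, and FZD4 with FZD9 and FZD10. In the lung, Wnt signalling is known for its part in branching during development and in the maintenance of alveolar stem cells.

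Upstream sequences are shown for the 3 members with an entry in the RefSeq promoter table (GRCh38.p14) that passed the test in at least 1 line, because these genes moved in different directions. FZD1 lies at chr7:91264183-91264363 on the plus strand in the stretch shown, FZD5 at chr2:207769907-207770156 on the minus strand, and FZD8 at chr10:35642297-35642546 on the minus strand. Each stretch ends before the annotated start of the gene and is written 5′ to 3′, with capitals marking GGGCGG on either strand, the core of the GC box bound by SP1.
FZD1: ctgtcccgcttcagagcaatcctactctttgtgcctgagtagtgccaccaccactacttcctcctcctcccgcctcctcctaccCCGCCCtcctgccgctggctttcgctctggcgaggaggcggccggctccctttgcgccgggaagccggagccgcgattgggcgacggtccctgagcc
FZD5: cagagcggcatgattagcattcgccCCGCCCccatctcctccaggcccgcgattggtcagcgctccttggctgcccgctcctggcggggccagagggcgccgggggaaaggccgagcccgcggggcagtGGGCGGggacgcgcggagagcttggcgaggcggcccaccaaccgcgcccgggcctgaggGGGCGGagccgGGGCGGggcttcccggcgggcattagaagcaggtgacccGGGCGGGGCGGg
FZD8: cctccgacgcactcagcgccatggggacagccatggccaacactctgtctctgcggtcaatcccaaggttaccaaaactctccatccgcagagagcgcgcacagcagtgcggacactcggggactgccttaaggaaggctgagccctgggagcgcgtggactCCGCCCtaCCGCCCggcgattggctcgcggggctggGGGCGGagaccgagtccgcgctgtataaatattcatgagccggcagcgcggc
The 250 bases before the RefSeq start held 1 match in FZD1, 6 in FZD5, the last pair of which overlap, and 3 in FZD8. The same letters occur in 42.6% of the 35116 promoters of that length. FZD4 and FZD9 also had an entry, with 6 and 2 matches. Neither strand of these 5 windows held the FOXO letters GTAAACA (in 2.98% of promoters), the TCF/LEF letters CTTTGAT (2.26%), the AP-1 letters TGANTCA (6.57%), the ETS letters CCGGAAG (8.52%), the E-box CACGTG (6.34%) or the cyclic AMP response element TGACGTCA (1.65%). A match is a description of letters in the window, not a site.

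Expression is given in TPM, a unit scaled for transcript length and to a fixed sum per library, from which sequencing depth cannot be read and is therefore unknown. Between 23766 and 25921 genes lay above 0 TPM in a library, mitochondrially encoded genes took 7.59% to 15.0% of TPM, and the correlation of replicates across genes was 0.987 to 0.990. All 7 epithelial markers (EPCAM, CDH1, KRT7, KRT8, KRT18, KRT19 and CLDN4) averaged at least 1 TPM in every group, and their summed level was lower with TRI-611 than with DMSO in each line. That sum was 8805 to 9157 TPM with TRI-611 and 9480 to 9870 TPM with DMSO in SNU2535, 7713 to 8245 and 9033 to 9340 TPM in NCI-H3122, and 3177 to 3233 and 3506 to 3622 TPM in NCI-H2228. The summed level of 5 lung lineage markers was higher with TRI-611 in each line, at 1288 to 1340 TPM with TRI-611 and 1097 to 1204 TPM with DMSO in SNU2535, 242.0 to 275.9 and 137.6 to 159.3 TPM in NCI-H3122, and 197.9 to 216.8 and 157.1 to 164.8 TPM in NCI-H2228. Of these, SFTPC was below 1 TPM in every group, and NAPSA and SFTPB were also below it in NCI-H3122. The epithelial and lung sums hid members that moved the other way, by the limma test described below. Among lung genes, 2 were called higher and 1 lower in SNU2535, while each other line had 1 call per direction. The 2 lung genes tested in NCI-H3122 had a median log2 difference of -0.46. Among epithelial genes, SNU2535 had 3 calls higher and 3 lower, NCI-H3122 had 1 higher against 3 lower, while NCI-H2228 had 1 against 2. Of the leukocyte list, CD14 averaged at least 1 TPM in every group and CD68 in SNU2535 and NCI-H2228 alone. That list summed to at most 12.5 TPM in a library. PTPRC, CD3E and MS4A1 of the leukocyte list and DCN, COL1A2, COL3A1 and PDGFRB of the fibroblast list were below 1 TPM in every group, while the collagen gene COL1A1 averaged from 12.3 TPM in NCI-H3122 with DMSO to 379.6 TPM in NCI-H2228 with DMSO. LUM, also of the fibroblast list, averaged 175.9 TPM with TRI-611 and 207.9 TPM with DMSO in NCI-H3122, 7.80 and 5.68 TPM in SNU2535, and under 1 TPM in NCI-H2228. The 4 endothelial markers summed to 12.5 to 14.5 TPM with TRI-611 and 12.1 to 12.8 TPM with DMSO in SNU2535, where all 4 averaged at least 1 TPM with TRI-611 and PECAM1 and CDH5 did with DMSO, and to at most 4.40 TPM in the other lines. The part of these marker levels in the Frizzled results was not tested.

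Within each line, genes with at least 1 TPM in 3 or more libraries were tested with limma on log2(TPM + 1), and a gene was called at a Benjamini-Hochberg adjusted p under 0.05 over all tested genes. FZD2 and FZD5 rose in all 3 lines. FZD1 rose in NCI-H3122 and fell in SNU2535 and NCI-H2228, FZD7 fell in SNU2535 and NCI-H3122 and rose in NCI-H2228, and FZD8 fell in SNU2535 and NCI-H3122. FZD6, the most abundant member in SNU2535 and NCI-H3122 in both treatments, was called in no line. In NCI-H3122, 5 of the 9 members tested were called, 3 higher and 2 lower, where 34.1% of all 15311 tested genes were called (20.6% higher and 13.4% lower). In SNU2535 the count was 5 of 7, 2 higher and 3 lower, beside 28.7% of 16252 genes (10.7% higher and 18.1% lower). In NCI-H2228 it was 4 of 7, 3 higher and 1 lower, beside 11.2% of 16806 genes (4.80% higher and 6.40% lower). The median log2 difference of the tested members was 0.04 in SNU2535, 0.27 in NCI-H3122 and 0.14 in NCI-H2228, beside -0.02, 0.05 and 0.01 over all tested genes. Counted by groups that did not overlap, 5 of 7 members in SNU2535 (2 higher, 3 lower) stood beside 43.9% of all tested genes (18.1% and 25.8%). The count was 7 of 9 in NCI-H3122 (5 higher, 2 lower) beside 48.1% (29.5% and 18.6%), and 4 of 7 in NCI-H2228 (3 higher, 1 lower) beside 31.4% (15.2% and 16.2%). The 5 higher in NCI-H3122 include FZD4, which passed the filter through its TRI-611 libraries alone, so its groups could not overlap. The members had been proposed from these same contrasts, so nothing is read from the counts. In bulk RNA, fewer cells with a transcript and less of it per cell cannot be told apart.

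**Figure D1:**
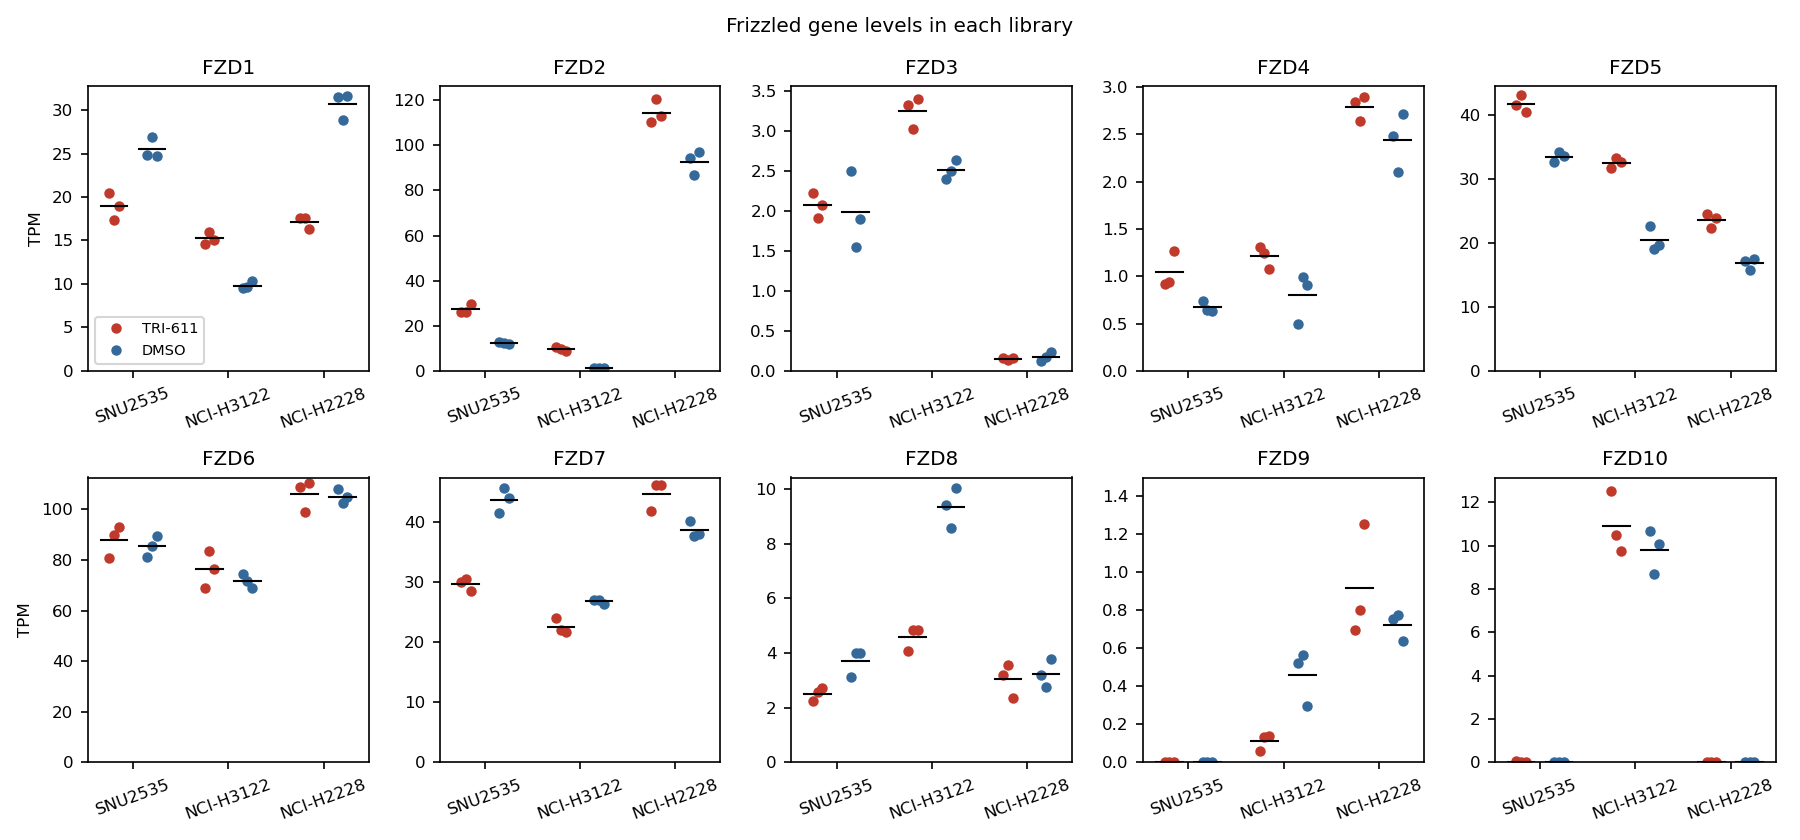
Level of each Frizzled gene in TPM (linear axes from 0, a separate scale per gene) in each of the 18 libraries, with TRI-611 left of DMSO in each line; points are libraries and bars the mean of 3. FZD2 spans from 1.11 TPM in a DMSO library of NCI-H3122 to 120.4 TPM in a TRI-611 library of NCI-H2228, while FZD10 is seen almost solely in NCI-H3122.

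FZD2, a receptor known for signalling by WNT5A, is a single-exon gene (ENSG00000180340, GRCh38 chromosome 17, 44557459 to 44559570, plus strand). In NCI-H3122 it stood at 10.4, 9.66 and 8.93 TPM with TRI-611, against 1.37, 1.11 and 1.39 TPM with DMSO. Every TRI-611 library lay far above every DMSO library, and the ratio of the means was 7.52. The log2 difference was 2.22 ± 0.10 (SE, n = 3 each), with a 95% interval of 1.99 to 2.46, and it was the 4th highest of the 15311 genes tested in that line. Because DMSO levels were close to 1 TPM, this value depends on the pseudocount of 1 and was 1.22 with a pseudocount of 5 and 2.82 with a pseudocount of 0.1.

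In SNU2535, FZD2 measured 25.9, 26.3 and 29.9 TPM with TRI-611 and 12.6, 12.5 and 12.1 TPM with DMSO. The groups did not overlap, and the ratio of the means was 2.21. The log2 difference was 1.08 ± 0.06 (SE, n = 3 each), the 100th highest of 16252. In NCI-H2228, where the gene was most abundant, it measured 110.3, 120.4 and 112.9 TPM with TRI-611 and 94.2, 86.8 and 97.1 TPM with DMSO. These groups did not overlap either, but the ratio of the means was only 1.24 and the log2 difference 0.30 ± 0.05 (SE, n = 3 each). The labels number batches 1 to 3, equal to the replicate number, and the difference was positive in each batch of each line: 2.27, 2.34 and 2.05 in NCI-H3122, 0.98, 1.02 and 1.24 in SNU2535, and 0.23, 0.47 and 0.22 in NCI-H2228.

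FZD1 is also a single-exon gene (ENSG00000157240, chromosome 7, 91264364 to 91271326, plus strand), and its product is a receptor for the β-catenin branch; its upstream sequence is the first of those printed. In NCI-H3122 it stood at 14.7, 16.0 and 15.1 TPM with TRI-611 and at 9.48, 9.62 and 10.4 TPM with DMSO. In NCI-H2228 it stood at 17.6, 17.6 and 16.3 TPM with TRI-611 and at 31.4, 28.9 and 31.7 TPM with DMSO. In SNU2535 it stood at 20.4, 17.4 and 19.0 TPM with TRI-611 and at 24.9, 26.9 and 24.7 TPM with DMSO. No pair of groups overlapped, and the direction was opposite in NCI-H3122 to that in the other lines. The log2 differences were 0.59 ± 0.06, -0.80 ± 0.06 and -0.41 ± 0.07 (SE, n = 3 each) in NCI-H3122, NCI-H2228 and SNU2535. With TRI-611 the means of the 3 lines lay between 15.2 and 18.9 TPM, and with DMSO between 9.82 and 30.7 TPM.

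FZD7, a receptor known from stem cells of several epithelia, is encoded by 1 exon (ENSG00000155760, chromosome 2, 202034587 to 202038445, plus strand). In SNU2535 it measured 30.1, 30.6 and 28.6 TPM with TRI-611 and 41.5, 45.8 and 44.0 TPM with DMSO, a log2 difference of -0.54 ± 0.05 (SE, n = 3 each). In NCI-H3122 it measured 24.1, 22.03 and 21.7 TPM with TRI-611 and 27.1, 27.1 and 26.4 TPM with DMSO, a log2 difference of -0.24 ± 0.05 (SE, n = 3 each). All TRI-611 libraries of both lines were below all DMSO libraries of the same line. In NCI-H2228 the TRI-611 libraries were the higher ones, at 41.8, 46.2 and 46.2 TPM against 40.2, 37.8 and 38.1 TPM with DMSO, and the log2 difference was 0.20 ± 0.05 (SE, n = 3 each). In this line the gap between the closest libraries was small, and the call was kept only without TRI-611 replicate 1 among the 6 fits that left out a library; without TRI-611 replicate 2 or 3, or any 1 DMSO library, it was lost, with differences of 0.18 to 0.25 over the 6 fits. The call was also lost without a filter, with plain empirical Bayes and when the batch was fitted as a replicate block. In each of these settings 3 members instead of 4 were called in NCI-H2228.

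FZD5 has 2 exons (ENSG00000163251, chromosome 2, 207762586 to 207769563, minus strand), and its product is a receptor for the β-catenin branch that cancers with RNF43 loss are known to depend on. In SNU2535 it stood at 41.6, 43.2 and 40.4 TPM with TRI-611 and at 32.7, 34.2 and 33.6 TPM with DMSO. In NCI-H3122 it stood at 31.8, 33.2 and 32.7 TPM with TRI-611 and at 22.7, 19.0 and 19.7 TPM with DMSO. In NCI-H2228 it stood at 24.5, 22.4 and 23.9 TPM with TRI-611 and at 17.1, 15.9 and 17.5 TPM with DMSO. The TRI-611 libraries were higher throughout, with no overlap in any line. The log2 differences were 0.31 ± 0.04 in SNU2535, 0.65 ± 0.07 in NCI-H3122 and 0.47 ± 0.06 in NCI-H2228 (SE, n = 3 each), and the ratios of the means were 1.24, 1.59 and 1.40.

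FZD8, the closest relative of FZD5, is a single-exon gene (ENSG00000177283, chromosome 10, 35638249 to 35642278, minus strand). In NCI-H3122 it measured 4.06, 4.84 and 4.84 TPM with TRI-611 and 9.41, 8.56 and 10.0 TPM with DMSO, so the level with TRI-611 was 0.491 times that with DMSO. The groups did not overlap, and the log2 difference was -0.89 ± 0.09 (SE, n = 3 each), opposite in sign to that of FZD5 in the same line; with a pseudocount of 5 it was -0.58. In SNU2535 it measured 2.24, 2.58 and 2.71 TPM with TRI-611 and 3.12, 3.99 and 4.00 TPM with DMSO. These groups did not overlap either, at a log2 difference of -0.42 ± 0.12 (SE, n = 3 each); the call was lost in 5 of the 6 fits that left out a library (without any 1 TRI-611 library, or without DMSO replicate 2 or 3), with differences of -0.51 to -0.36, and the value was -0.21 with a pseudocount of 5. In NCI-H2228 the levels were 3.21, 3.58 and 2.34 TPM with TRI-611 and 3.21, 2.74 and 3.78 TPM with DMSO. These overlapped, and the log2 difference of -0.08 had an interval of -0.43 to 0.28.

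**Figure D2:**
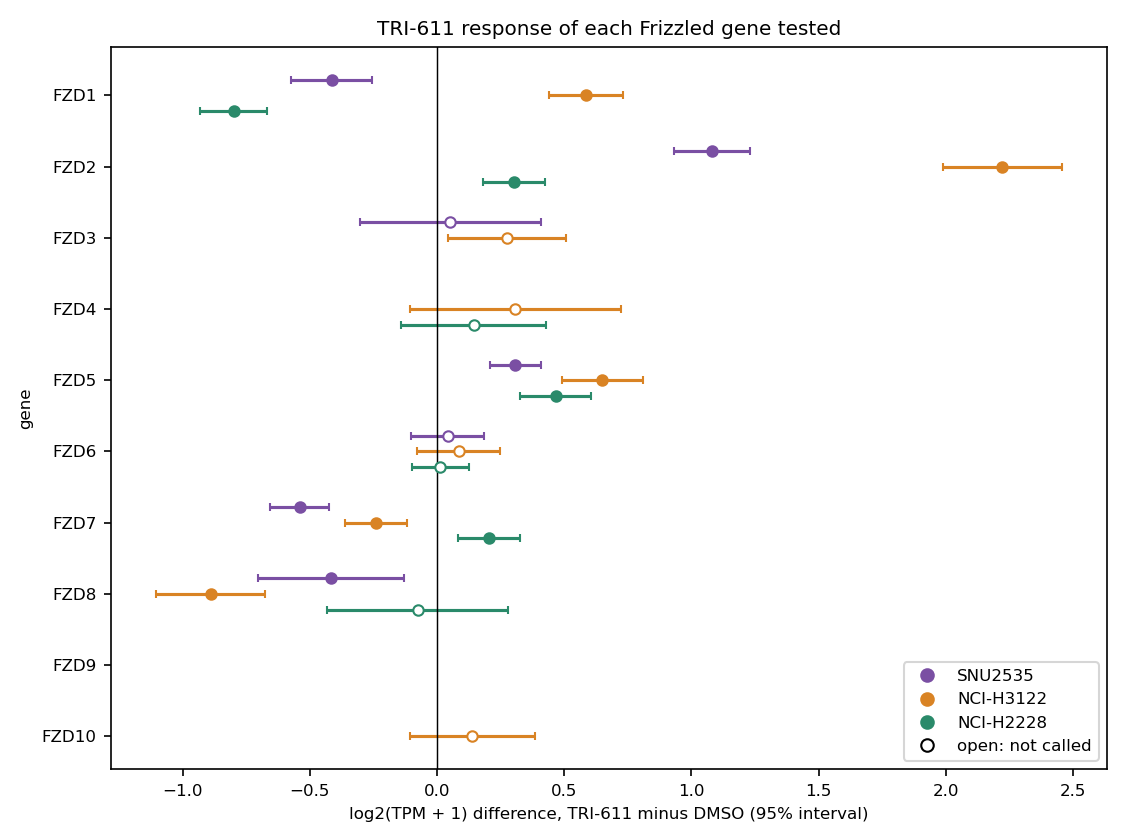
Difference between TRI-611 and DMSO in log2(TPM + 1) for each Frizzled gene tested in each line; points are limma estimates, bars 95% intervals, filled points called genes and open points genes not called. FZD2 and FZD5 lie right of 0 in the 3 lines, FZD1 and FZD7 lie on both sides, and the intervals of FZD6 include 0 in each line.

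FZD6 and FZD3 are the members best known for planar cell polarity, in hair patterning and in neural tube closure and axon growth. FZD6 (ENSG00000164930, chromosome 8, 103298433 to 103332866, plus strand) stood at 80.8, 89.9 and 93.2 TPM with TRI-611 and 81.1, 85.4 and 89.7 TPM with DMSO in SNU2535. The corresponding levels in NCI-H3122 were 69.0, 83.7 and 76.3 TPM with TRI-611 and 74.6, 71.8 and 68.9 TPM with DMSO, and in NCI-H2228 they were 108.8, 99.1 and 110.5 TPM with TRI-611 and 108.0, 102.5 and 104.7 TPM with DMSO. The groups overlapped in every line. The log2 difference was 0.04 (interval -0.10 to 0.18) in SNU2535, 0.08 (-0.08 to 0.25) in NCI-H3122 and 0.01 (-0.10 to 0.12) in NCI-H2228, and all 3 intervals include 0. The antisense gene BAALC-AS1 overlaps FZD6 and averaged 1.16 to 3.44 TPM over the groups; the strand setting of the counting is not given in the sources used here, so reads of the overlap cannot be told apart.

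FZD3 (ENSG00000104290, chromosome 8, 28494205 to 28574268, plus strand) measured 3.33, 3.03 and 3.40 TPM with TRI-611 and 2.40, 2.503 and 2.64 TPM with DMSO in NCI-H3122. The groups did not overlap, but the log2 difference of 0.27 ± 0.10 (SE, n = 3 each) was not called, though it was with plain empirical Bayes. In SNU2535 it measured 2.22, 1.92 and 2.07 TPM with TRI-611 and 2.497, 1.55 and 1.90 TPM with DMSO, with overlapping groups and a log2 difference of 0.05 ± 0.15 (SE, n = 3 each). In NCI-H2228 it averaged 0.150 TPM with TRI-611 and 0.180 TPM with DMSO and was below the level needed for testing.

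FZD4, known as the receptor for Norrin in retinal blood vessels, was low in all lines (ENSG00000174804, chromosome 11, 86945679 to 86955391, minus strand). In NCI-H2228 it stood at 2.84, 2.64 and 2.89 TPM with TRI-611 and at 2.49, 2.10 and 2.71 TPM with DMSO, and was not called at a log2 difference of 0.14 ± 0.12 (SE, n = 3 each). In NCI-H3122 it stood at 1.31, 1.25 and 1.08 TPM with TRI-611 and at 0.496, 0.990 and 0.909 TPM with DMSO. It passed the filter there through the TRI-611 libraries alone, which were all higher, and was not called at 0.31 ± 0.18 (SE, n = 3 each). In SNU2535 it stood at 0.917, 0.938 and 1.26 TPM with TRI-611 and at 0.735, 0.646 and 0.637 TPM with DMSO, with no overlap and without a test. The protease gene PRSS23 overlaps FZD4 on the opposite strand and was far more abundant in SNU2535 and NCI-H2228, at 117.5 and 132.6 TPM with TRI-611 and 100.2 and 127.4 TPM with DMSO. In NCI-H3122, PRSS23 averaged 6.12 TPM with TRI-611 and 5.18 TPM with DMSO, also above FZD4. With the strand setting of the counting not given, reads of this overlap cannot be told apart either.

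FZD10 (ENSG00000111432, chromosome 12, 130162459 to 130165740, plus strand), a member known from synovial sarcoma, was a gene of NCI-H3122. It measured 12.5, 10.5 and 9.76 TPM there with TRI-611 and 10.7, 8.69 and 10.1 TPM with DMSO, with overlapping groups and a log2 difference of 0.14 ± 0.11 (SE, n = 3 each) that was not called. In the 12 libraries of the other lines it was listed at 0, apart from 0.086 TPM in TRI-611 replicate 1 of SNU2535. FZD9 (ENSG00000188763, chromosome 7, 73433783 to 73436120, plus strand), which lies in the region deleted in Williams syndrome, was too low for a test in any line. It was listed at 0 in all 6 libraries of SNU2535, reached 0.698, 0.802 and 1.26 TPM with TRI-611 and 0.754, 0.778 and 0.639 TPM with DMSO in NCI-H2228, and in NCI-H3122 was at 0.0625, 0.131 and 0.139 TPM with TRI-611 and 0.522, 0.563 and 0.299 TPM with DMSO.

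The summed Frizzled level and its make-up were compared as well. In SNU2535 the summed Frizzled level was 204.2, 212.8 and 217.1 TPM with TRI-611 and 199.1, 211.0 and 210.6 TPM with DMSO, with overlapping groups. In NCI-H3122 it was 171.2, 184.4 and 174.0 TPM with TRI-611 and 158.8, 149.98 and 150.6 TPM with DMSO, and in NCI-H2228 309.96, 312.9 and 316.5 TPM with TRI-611 and 297.6, 277.6 and 296.4 TPM with DMSO. In these 2 lines every TRI-611 library was above every DMSO library and the means were 176.5 ± 6.92 and 313.1 ± 3.30 TPM with TRI-611, against 153.1 ± 4.93 and 290.5 ± 11.2 TPM with DMSO (SD, n = 3 each). FZD6 was the largest share in SNU2535 (41.6% with TRI-611 and 41.3% with DMSO) and NCI-H3122 (43.2% and 46.9%). In NCI-H2228, FZD2 held 36.6% ± 1.63 with TRI-611 and 31.9% ± 0.771 with DMSO (SD, n = 3 each), and FZD6 33.9% and 36.2%. FZD2 also took 12.9% ± 0.725 with TRI-611 and 6.00% ± 0.310 with DMSO in SNU2535, and 5.49% ± 0.531 and 0.841% ± 0.0939 in NCI-H3122 (SD, n = 3 each). FZD7 had the opposite pattern in SNU2535, with 14.1% ± 0.806 of the sum with TRI-611 and 21.1% ± 0.482 with DMSO (SD, n = 3 each).

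**Figure D3:**
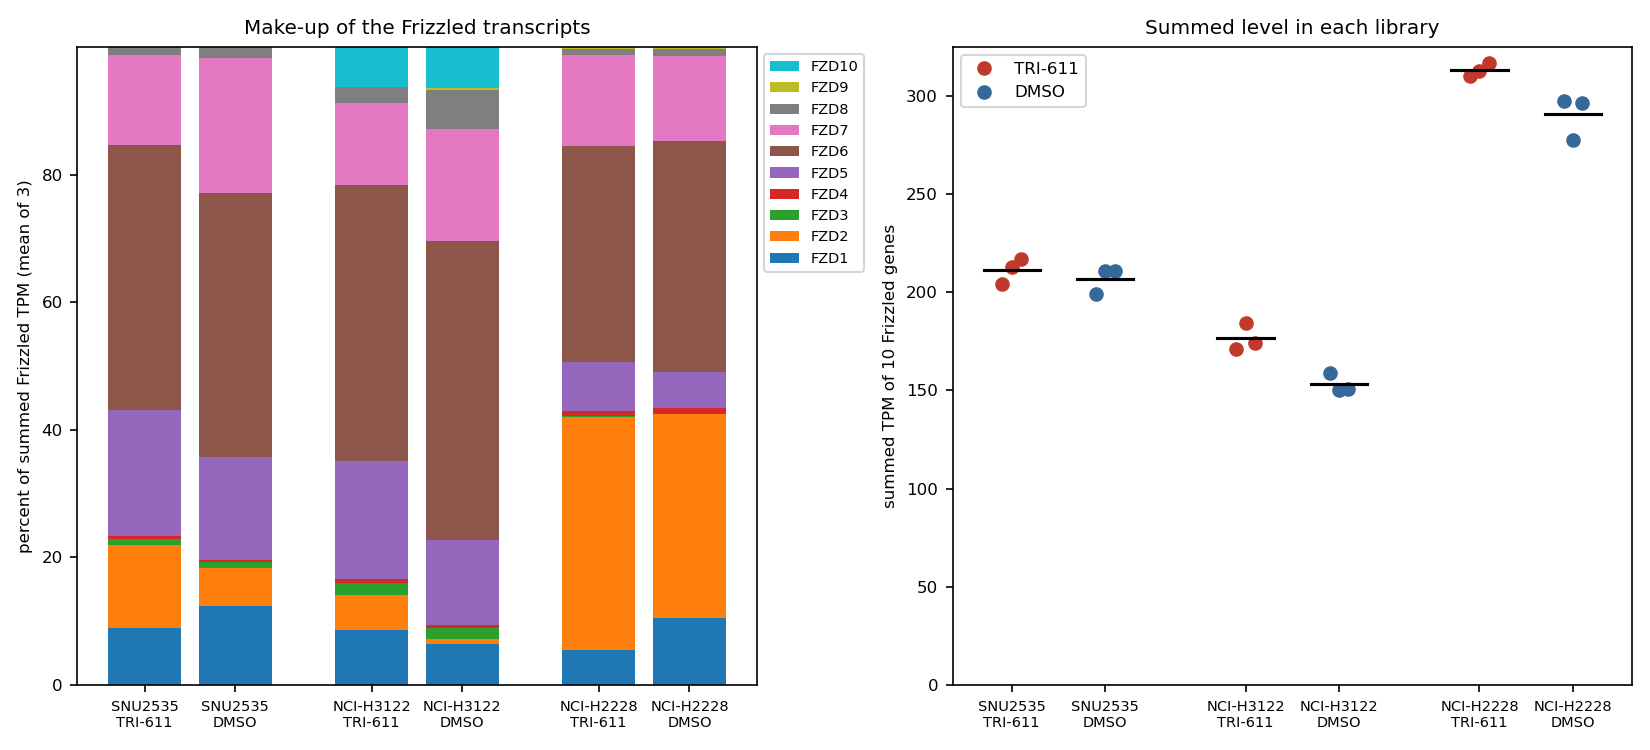
Left, share of each Frizzled gene in the summed Frizzled TPM (percent, mean of 3 libraries) for each group, with TRI-611 left of DMSO; right, the summed TPM per library, with points for libraries and bars for means. The FZD2 share is larger with TRI-611 in each line, and the sums of SNU2535 overlap between treatments.

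The lines also differed in their Frizzled levels without the degrader. In the 9 DMSO libraries, 7 of 9 tested members were called between SNU2535 and NCI-H3122, 5 higher and 2 lower in SNU2535, beside 76.1% of 18233 genes (45.4% higher and 30.7% lower). Between SNU2535 and NCI-H2228 the count was also 7 of 9, 3 higher and 4 lower, beside 75.0% (32.4% and 42.6%). Between NCI-H3122 and NCI-H2228 all 9 were called, 4 higher and 5 lower, beside 79.3% (30.0% and 49.3%). FZD9 was not tested. FZD10 passed the filter through NCI-H3122 alone, FZD4 through NCI-H2228 alone, and FZD3 through SNU2535 and NCI-H3122, so they had to differ from the lines below the filter and these calls support nothing. Between SNU2535 and NCI-H2228, FZD10 could not be called, because it was listed at 0 in all DMSO libraries of both lines. The same numbers of members did not overlap between the lines, beside 78.3% of genes for SNU2535 and NCI-H3122 (46.7% higher, 31.7% lower), 76.4% for SNU2535 and NCI-H2228 (33.1%, 43.3%) and 80.7% for NCI-H3122 and NCI-H2228 (30.5%, 50.2%). These shares of members are near those of all genes, or rest on 9 genes.

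FZD2 had the widest range among members detected in all 3 lines. Its DMSO mean was 12.4 ± 0.273 TPM in SNU2535, 1.29 ± 0.157 TPM in NCI-H3122 and 92.7 ± 5.32 TPM in NCI-H2228 (SD, n = 3 each). The log2 difference was 2.55 for SNU2535 minus NCI-H3122, -2.81 for SNU2535 minus NCI-H2228 and -5.36 for NCI-H3122 minus NCI-H2228, each with an SE of 0.06. With a pseudocount of 5 the first of these was 1.47. The last ran from -6.07 to -3.96 over the settings other than leaving out a library. No neighbouring pair among the 6 groups overlapped in FZD2, and the order from the top was NCI-H2228 with TRI-611, NCI-H2228 with DMSO, SNU2535 with TRI-611, SNU2535 with DMSO, NCI-H3122 with TRI-611 and NCI-H3122 with DMSO. The TRI-611 level in NCI-H3122, 9.68 ± 0.759 TPM, therefore stayed below the DMSO level in SNU2535.

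FZD1 and FZD8 separated NCI-H3122 from the other lines in opposite directions. FZD1 with DMSO averaged 25.5 ± 1.25 TPM in SNU2535, 9.82 ± 0.477 TPM in NCI-H3122 and 30.7 ± 1.55 TPM in NCI-H2228, while FZD8 averaged 3.70 ± 0.507, 9.34 ± 0.736 and 3.24 ± 0.521 TPM (SD, n = 3 each). The log2 difference for SNU2535 minus NCI-H3122 was 1.29 ± 0.06 (SE) for FZD1 and -1.14 ± 0.12 (SE) for FZD8 (-1.47 to -0.72 over the other settings), and between SNU2535 and NCI-H2228 the FZD8 groups overlapped. With TRI-611, FZD1 in SNU2535 and in NCI-H2228 overlapped, whereas the DMSO groups of these lines did not. FZD5 with DMSO ran in the order SNU2535 (33.5 ± 0.756 TPM), NCI-H3122 (20.5 ± 1.97 TPM) and NCI-H2228 (16.8 ± 0.860 TPM), and FZD7 in the order SNU2535 (43.8 ± 2.15 TPM), NCI-H2228 (38.7 ± 1.32 TPM) and NCI-H3122 (26.9 ± 0.412 TPM; SD, n = 3 each).

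FZD6 had the smallest ratio between lines, at 85.4 ± 4.30, 71.8 ± 2.89 and 105.1 ± 2.78 TPM with DMSO in SNU2535, NCI-H3122 and NCI-H2228 (SD, n = 3 each). Its difference between SNU2535 and NCI-H3122, 0.25 on the log2 scale, was no longer called when the libraries were rescaled by median ratios (0.05) or by quantiles (0.08). FZD3 was 1.57 ± 0.13 (SE) higher on the log2 scale in NCI-H3122 than in NCI-H2228 (0.54 with a pseudocount of 5), the FZD4 difference for NCI-H3122 minus NCI-H2228, with no DMSO library of NCI-H3122 at 1 TPM, was -0.94 ± 0.13 (SE; -0.36 with a pseudocount of 5), and FZD10 was 9.81 ± 1.02 TPM (SD, n = 3) in NCI-H3122 while it was listed at 0 in the DMSO libraries of the other lines.

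The difference between the responses of a pair of lines was tested as an interaction over the 12 libraries of the pair. For SNU2535 minus NCI-H3122, 5 of 7 tested members were called, 1 higher and 4 lower, beside 20.1% of 13788 genes (3.71% higher and 16.4% lower). For SNU2535 minus NCI-H2228 the count was 3 of 6, 2 higher and 1 lower, beside 10.6% of 14640 genes (2.74% and 7.83%), and for NCI-H3122 minus NCI-H2228 it was 4 of 7, 2 higher and 2 lower, beside 14.3% of 13878 genes (8.99% and 5.34%). The pairs share libraries with one another and with the contrasts above, so these counts are a description.

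The response of FZD2 was larger in NCI-H3122 than in NCI-H2228 by 1.92 (interval 1.71 to 2.13) on the log2 scale (0.93 with a pseudocount of 5), and larger in SNU2535 than in NCI-H2228 by 0.78 (0.60 to 0.96). Its response in SNU2535 minus that in NCI-H3122 was -1.14 (-1.38 to -0.90), and this last value was -0.33 with a pseudocount of 5. For FZD1 the response in NCI-H3122 minus that in NCI-H2228 was 1.39 (1.21 to 1.57), where the gene rose in the first line and fell in the second. FZD7 differed by -0.75 (-0.91 to -0.58) between SNU2535 and NCI-H2228 and by -0.44 (-0.61 to -0.28) between NCI-H3122 and NCI-H2228, while its SNU2535 minus NCI-H3122 value of -0.30 was not called after rescaling by median ratios (-0.17) or quantiles (-0.19). FZD8 differed by -0.81 (-1.21 to -0.42) between NCI-H3122 and NCI-H2228, and by 0.47 (0.15 to 0.79) between SNU2535 and NCI-H3122. The second of these calls was lost in 8 of 12 fits without 1 library. It was also lost with a pseudocount of 0.1, without a filter and in 1 fit of all 18 libraries. For FZD5, which rose in the 3 lines, the response was smaller in SNU2535 than in NCI-H3122 by -0.34 (-0.52 to -0.16), a value that was not called after median-ratio scaling (-0.21), and neither difference from NCI-H2228 was called, at -0.16 (-0.31 to -0.003) for SNU2535 and 0.18 (-0.02 to 0.38) for NCI-H3122. FZD6 was called in no pair, with intervals from -0.26 to 0.27.

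Among 102 other Wnt pathway genes, 62 were tested in SNU2535, 59 in NCI-H3122 and 67 in NCI-H2228. Of these, 5 rose and 21 fell in SNU2535, 17 rose and 15 fell in NCI-H3122, and 7 rose and 3 fell in NCI-H2228. Of all tested genes, SNU2535 had 10.7% higher and 18.1% lower, NCI-H3122 had 20.6% higher and 13.4% lower, and NCI-H2228 had 4.80% higher and 6.40% lower; nothing is called particular to the lists from these counts. Their median log2 difference was -0.06, 0.08 and 0.04, beside -0.02, 0.05 and 0.01 for all tested genes. Up to 3 called genes per list and line, those with the largest differences, are named here, and adjusted p-values are limma's over all genes tested.

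Most of the 19 Wnt ligand genes were too low for a test, with 4, 6 and 5 tested in SNU2535, NCI-H3122 and NCI-H2228. WNT7A measured 0.766, 0.536 and 0.710 TPM with TRI-611 and 3.49, 4.15 and 3.42 TPM with DMSO in NCI-H3122, a log2 difference of -1.49 ± 0.13 (SE, n = 3 each). It passed the filter through the DMSO libraries alone, so its groups could not overlap and its call supports nothing. Without any 1 DMSO library it failed the filter and was not tested. Over the other alternatives the difference ran from -2.30 to -0.61. WNT5B, a ligand of the β-catenin-independent branch, measured 5.16, 4.96 and 5.67 TPM with TRI-611 and 2.27, 2.51 and 2.70 TPM with DMSO in the same line (log2 difference 0.84 ± 0.10, SE, limma adjusted p = 0.000498; 0.45 to 1.05 over the alternatives). In SNU2535, WNT3 was higher by 0.40 ± 0.07 (SE, limma adjusted p = 0.00471) and WNT7B, the most abundant ligand there at 137.2 ± 3.57 TPM with TRI-611 and 176.2 ± 6.12 TPM with DMSO (SD, n = 3 each), fell by 0.36 on the log2 scale (limma adjusted p = 0.000360). WNT9A was called in all 3 lines, at 0.37 ± 0.05 in NCI-H2228, -0.23 ± 0.06 in SNU2535 and -0.30 ± 0.08 in NCI-H3122 (SE). The SNU2535 call was lost after quantile normalization, with plain empirical Bayes and without replicate 1 or 2 of either group (adjusted p 0.0151 to 0.0734 over all alternatives), and the NCI-H3122 call without TRI-611 replicate 1 or 2 or DMSO replicate 1 or 3 (0.00208 to 0.0644). Both genes of Wnt secretion in the lists were tested in each line and not called.

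Among 9 co-receptors and other Wnt receptors, 7 were tested in each line. ROR1, a receptor tyrosine kinase-like receptor for WNT5A, stood at 24.2, 27.4 and 24.4 TPM with TRI-611 and 34.5, 34.0 and 36.4 TPM with DMSO in SNU2535, and at 15.5, 15.2 and 16.3 TPM with TRI-611 and 22.4, 21.98 and 22.3 TPM with DMSO in NCI-H3122. The log2 differences were -0.45 ± 0.06 (limma adjusted p = 0.00106) and -0.48 ± 0.05 (limma adjusted p = 0.000245). LRP6, the co-receptor of the β-catenin branch, was higher in NCI-H3122 by 0.30 ± 0.05 (SE, limma adjusted p = 0.00255). RYK was lower in SNU2535 and NCI-H3122 by -0.26 and -0.27, and PTK7 was higher in SNU2535 by 0.19. The RYK call of SNU2535 was lost without DMSO replicate 3 (adjusted p up to 0.0519), and that of PTK7 without TRI-611 replicate 2 or 3 or DMSO replicate 1 or 3 (up to 0.0764). No gene of this list was called in NCI-H2228.

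Of 9 genes of receptor turnover and the R-spondin axis, 4 were tested in SNU2535 (2 fell), 3 in NCI-H3122 (1 rose) and 5 in NCI-H2228 (1 rose). ZNRF3 measured 7.67, 8.02 and 6.99 TPM with TRI-611 and 12.0, 13.3 and 12.4 TPM with DMSO in SNU2535, a log2 difference of -0.66 ± 0.07 (SE, n = 3 each; limma adjusted p = 0.000449). RNF43 was lower in the same line by -0.26 ± 0.06 (SE, limma adjusted p = 0.0136), a call lost without DMSO replicate 3 (adjusted p 0.0133 to 0.0524 over all alternatives). LGR4, an R-spondin receptor, measured 59.5, 63.4 and 58.9 TPM with TRI-611 and 43.4, 37.8 and 43.7 TPM with DMSO in NCI-H3122 (log2 difference 0.53 ± 0.06, SE, limma adjusted p = 0.000576). In NCI-H2228 it was higher by 0.22 ± 0.05 (SE, limma adjusted p = 0.0242), but the call was lost with plain empirical Bayes and without TRI-611 replicate 1 or 3 or DMSO replicate 1 or 2 (0.00790 to 0.0933). The SNU2535 response minus that of NCI-H3122 was -0.51 ± 0.09 for ZNRF3, -0.42 ± 0.09 for RNF43 and -0.54 ± 0.07 for LGR4 (SE, limma adjusted p = 0.00174, 0.00807 and 0.000304), the 3 genes of the list tested there. They were looked up because they had been called within a line of these same libraries. Their response differences are therefore a description and no independent test. For SNU2535 minus NCI-H2228, 3 of 4 genes of the list were called, and for NCI-H3122 minus NCI-H2228, 1 of 3. Of all genes tested, 20.1% were called for SNU2535 minus NCI-H3122, 10.6% for SNU2535 minus NCI-H2228 and 14.3% for NCI-H3122 minus NCI-H2228. Nothing is read from counts of so few genes.

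Few of the 15 secreted antagonists were tested. DKK1, which blocks LRP6, moved in opposite directions: it measured 78.1, 71.5 and 76.2 TPM with TRI-611 and 45.4, 43.1 and 47.8 TPM with DMSO in SNU2535, and 17.2, 13.9 and 15.3 TPM with TRI-611 and 27.5, 25.5 and 32.0 TPM with DMSO in NCI-H3122. The log2 differences were 0.72 ± 0.05 (limma adjusted p = 5.8e-05) and -0.83 ± 0.10 (limma adjusted p = 0.000644), and the response in SNU2535 minus that in NCI-H3122 was 1.55 ± 0.12 (SE), given as a description because DKK1 was looked up for its opposite directions in this pair. KREMEN1, a DKK1 receptor, was higher in NCI-H3122 by 0.29 ± 0.06 (SE, limma adjusted p = 0.00856). SOST was higher in NCI-H2228 by 0.64 ± 0.14 (SE, limma adjusted p = 0.0215), a call lost without TRI-611 replicate 1 or 3 or DMSO replicate 1 or 2 (up to 0.0831), and its difference ran from 0.31 to 0.85 over the alternatives.

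All 16 cytoplasmic transducers were tested in every line, with 1 higher and 8 lower in SNU2535, 6 higher and 5 lower in NCI-H3122, and 1 higher and 1 lower in NCI-H2228, where 28.7%, 34.1% and 11.2% of all tested genes were called in these lines. AXIN1, the scaffold of the β-catenin destruction complex, stood at 17.2, 19.6 and 18.3 TPM with TRI-611 and 31.0, 35.6 and 32.6 TPM with DMSO in SNU2535, a log2 difference of -0.81 ± 0.07 (SE, limma adjusted p = 0.000116). It was also lower in NCI-H3122, by -0.34 ± 0.06 (SE, limma adjusted p = 0.00522). CTNNB1, which encodes β-catenin, averaged 370.0 ± 14.2 TPM with TRI-611 and 483.7 ± 7.13 TPM with DMSO in NCI-H3122 (SD, n = 3 each), a log2 difference of -0.39 ± 0.04 (SE, limma adjusted p = 0.000183). DVL1, which relays the signal from Frizzled, was lower in SNU2535 by -0.36 ± 0.05 (SE, limma adjusted p = 0.000929), and TNKS, which marks axin for removal, was higher in NCI-H3122 by 0.48 ± 0.07 (SE, limma adjusted p = 0.00133). APC2 in SNU2535 (-0.41), DVL2 in NCI-H2228 (0.24) and CTNNBIP1 in NCI-H2228 (-0.23) were called at adjusted p = 0.0169, 0.0328 and 0.0248 by limma. The APC2 difference was -0.23 with a pseudocount of 5, and its call was lost without TRI-611 replicate 3 or DMSO replicate 2 (up to 0.0555), that of DVL2 in each fit without 1 library except DMSO replicate 3 (up to 0.105), and that of CTNNBIP1 in each except TRI-611 replicate 2 (up to 0.0814).

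Of 8 nuclear factors, 7, 6 and 7 were tested in SNU2535, NCI-H3122 and NCI-H2228. LEF1 and TCF7, DNA-binding partners of β-catenin, were lower in NCI-H3122. LEF1 stood at 0.927, 0.887 and 0.789 TPM with TRI-611 and 1.88, 2.10 and 2.32 TPM with DMSO (log2 difference -0.73 ± 0.14, SE). LEF1 passed the filter through the DMSO libraries alone, so its groups could not overlap and its call supports nothing. Without any 1 DMSO library it failed the filter and was not tested. Its difference ran from -1.18 to -0.28 over the other alternatives. TCF7 stood at 7.81, 7.92 and 6.19 TPM with TRI-611 and 12.8, 12.1 and 11.5 TPM with DMSO (-0.67 ± 0.10, SE, limma adjusted p = 0.00146). TCF7L2, of the same family, was higher by 0.41 ± 0.06 in NCI-H3122 and by 0.43 ± 0.07 in NCI-H2228 (SE, limma adjusted p = 0.00179 and 0.00435). In SNU2535, BCL9L, a β-catenin cofactor, was lower by -0.37 ± 0.05 (SE, limma adjusted p = 0.00123), and PYGO1 by -0.46 ± 0.14 (SE, limma adjusted p = 0.0471), a call lost without any 1 of the 6 libraries (up to 0.143) and under the replicate block; its difference was -0.20 with a pseudocount of 5.

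Of 10 genes listed as Wnt targets, MYC and CCND1 fell in all 3 lines; both are known to respond to growth factor signalling as well. MYC averaged 67.6 ± 2.08 TPM with TRI-611 and 202.9 ± 13.4 TPM with DMSO in SNU2535, 270.7 ± 5.67 and 421.0 ± 5.40 TPM in NCI-H3122, and 57.5 ± 1.13 and 119.6 ± 5.78 TPM in NCI-H2228 (SD, n = 3 each). The log2 differences were -1.57, -0.64 and -1.04, and for CCND1, which encodes cyclin D1, they were -1.25, -0.85 and -0.67. The largest of the 6 limma adjusted p-values was 3.37e-05. ASCL2 was lower in SNU2535 by -0.31 ± 0.06 (SE, limma adjusted p = 0.00718). SP5 was higher in NCI-H2228 by 0.46 ± 0.12 (SE, limma adjusted p = 0.0493), a call lost under the replicate block, after quantile normalization and in each fit without 1 library except DMSO replicate 3 (up to 0.142); its difference was 0.29 with a pseudocount of 5.

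Of 14 planar polarity and β-catenin-independent genes, 5 of 11 tested rose in NCI-H3122 and none fell, beside 20.6% and 13.4% of all tested genes. In SNU2535, 1 of 12 rose and 1 fell, and in NCI-H2228 1 of 13 rose. In NCI-H3122, VANGL2 and CELSR2, which act with FZD3 and FZD6 at polarised membranes, were higher by 0.68 ± 0.14 and 0.53 ± 0.06 (SE, limma adjusted p = 0.00802 and 0.000400); the VANGL2 value ran from 0.34 to 0.88 over the alternatives. VANGL2 stood at 3.94, 4.598 and 3.84 TPM with TRI-611 and 2.85, 1.83 and 1.99 TPM with DMSO, and CELSR2 at 12.5, 12.8 and 13.3 TPM with TRI-611 and 8.65, 8.28 and 8.84 TPM with DMSO. NFATC1 was higher by 0.53 ± 0.13 (SE, limma adjusted p = 0.0157), a call lost after quantile normalization and without TRI-611 replicate 2 (up to 0.0521), and its difference was 0.28 with a pseudocount of 5. DAAM1, a formin that binds Dishevelled, was higher in SNU2535 by 0.25 ± 0.05 and in NCI-H2228 by 0.45 ± 0.07 (SE, limma adjusted p = 0.00707 and 0.00578), and PRICKLE1 was lower in SNU2535 by -0.44 ± 0.08 (SE, limma adjusted p = 0.00649).

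**Figure D4:**
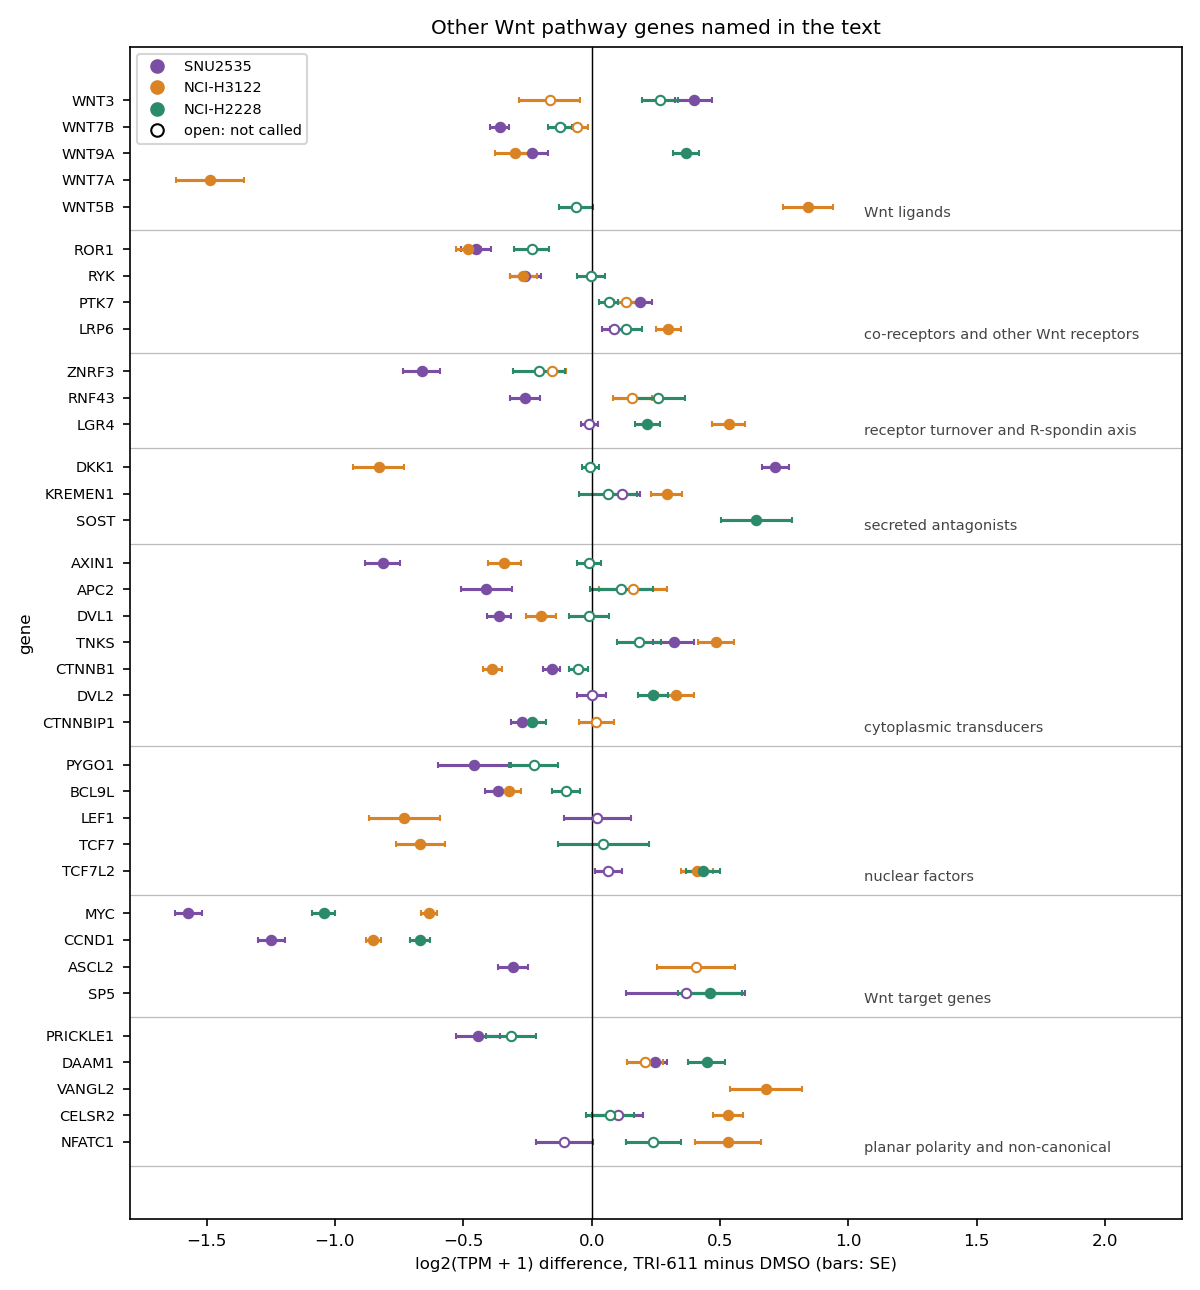
Difference between TRI-611 and DMSO in log2(TPM + 1) for the named Wnt pathway genes outside the Frizzled family, grouped by role; points are limma estimates, bars the SE, filled points called genes and open points genes not called. MYC and CCND1 lie left of 0 in the 3 lines, and DKK1 lies at 0.72 in SNU2535 and -0.83 in NCI-H3122.

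For each of the 6 members tested in all 3 lines, the nearest expression profiles were sought among 13185 genes over the 18 libraries, by the root mean square distance of log2(TPM + 1) after each profile was centred on its own mean. The profile of FZD2 was nearest to those of TNFSF10 (distance 0.40), HEG1 (0.41) and PLSCR4 (0.48), while its own spread around its mean was 1.94. TNFSF10 averaged 11.3 and 3.80 TPM with TRI-611 and DMSO in SNU2535, 1.98 and 0.325 TPM in NCI-H3122, and 63.2 and 42.8 TPM in NCI-H2228. FZD5 was nearest to KIAA1217 (0.09), DHRS4-AS1 (0.12) and ZKSCAN1 (0.12), at a spread of 0.44. FZD1 was nearest to ZNF747 (0.23), GRK4 (0.24) and GUSBP5 (0.25), at a spread of 0.50. FZD7 was nearest to RABIF, URGCP and ETV3 (0.12 to 0.13), FZD8 to SURF2, CARD10 and LRCH1 (0.18 to 0.20), and FZD6 to NUP107, IPO9 and PHF19 (0.05 to 0.07). A near profile need not share the TRI-611 response, because the distance also takes in differences between lines. In NCI-H2228, FZD7 averaged 44.8 TPM with TRI-611 and 38.7 TPM with DMSO, while its 3 nearest genes averaged lower with TRI-611 (RABIF 26.3 and 28.8 TPM). No Frizzled gene was among the 3 nearest of another.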

How the data were processed

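Poly-A RNA of 18 libraries from 3 cell lines was sequenced with unique molecular identifiers added by the kit, per the labels' protocols. The authors deposited 1 table of TPM values for 57500 genes, of which 485 have no name. Per the submitters' processing notes, the build was GRCh38 and the tools were STAR 2.5.2b, fastp 0.23.1, DESeq2, featureCounts and Subread 1.5.2. Annotation, strand setting, use of the molecular identifiers and derivation of TPM remain not given in the sources used here. Of the gene IDs, 56898 were found in GENCODE release 29 (GRCh38), which supplied coordinates and overlaps, and sequences are credited to RefSeq.

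The deposited TPM values were put on the scale log2(TPM + 1), which understates the change of low genes. A gene needed a TPM of at least 1 in 3 or more fitted libraries (for differences between responses, in each line of the pair) and was then tested with limma 3.58.1 in R 4.3.3, with empirical Bayes settings trend and robust. The test was two-sided, Benjamini-Hochberg adjustment ran over all tested genes, and calls were made at an adjusted p under 0.05. Each line was fitted on its 6 libraries, pairs of responses on 12 and DMSO levels on 9. All libraries entered the main results. The steps were tested on simulated data.

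The Frizzled genes, the pathway and marker lists, the tests and the rule for named genes were chosen with earlier results of these data known. That rule took up to 3 called genes per list and line by size of the difference, and the 3 nearest profiles per member. The labels' batch, equal to the replicate number, pairs samples across groups. The deviations of same-numbered samples from their group means correlated in SNU2535 at -0.0228, 0.0437 and 0.00966, in NCI-H3122 at -0.0865, -0.0290 and 0.0152, and in NCI-H2228 at 0.101, 0.00343 and 0.0830 (over genes, which are no independent replicates). With 1 library per group in a batch, a test within one was not possible. Alternatives were pseudocounts of 0.1 and 5, other filters, median-ratio and quantile scaling, TPM without mitochondrially encoded genes, plain empirical Bayes, 1 fit of all 18 libraries, the replicate block and leaving out each library.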

Additional observations from a re-analysis of the deposited data

Results flagged for a closer look

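The difference between the responses of a pair of lines passed the threshold (limma, adjusted over all genes tested) for 5 Frizzled genes and 5 other named pathway genes. The Frizzled genes were proposed from these same contrasts, and DKK1 and WNT9A were picked for opposite directions. ZNRF3, RNF43 and LGR4 were taken from genes already called within a line of these same libraries. For all of these genes the calls are a description and no independent test. Of the pathway genes, only those of receptor turnover and those called in opposite directions in a pair of lines were looked up, a choice made after the values were seen. For SNU2535 minus NCI-H3122, the log2 differences were -0.9998 for FZD1, -1.14 for FZD2, -0.34 for FZD5, -0.30 for FZD7, 0.47 for FZD8, -0.51 for ZNRF3, -0.42 for RNF43, -0.54 for LGR4 and 1.55 for DKK1. For SNU2535 minus NCI-H2228, they were 0.39 for FZD1, 0.78 for FZD2, -0.75 for FZD7, -0.60 for WNT9A, -0.46 for ZNRF3, -0.52 for RNF43 and -0.23 for LGR4. For NCI-H3122 minus NCI-H2228, they were 1.39 for FZD1, 1.92 for FZD2, -0.44 for FZD7, -0.81 for FZD8, -0.67 for WNT9A and 0.32 for LGR4.

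Several of these calls were lost under some alternatives. The FZD8 value for SNU2535 minus NCI-H3122 ran from 0.38 to 0.53 over 12 fits without 1 library and was called in 4 of them: those without SNU2535 TRI-611 replicate 1, SNU2535 DMSO replicate 2 or 3, or NCI-H3122 DMSO replicate 2. This FZD8 call was also lost with a pseudocount of 0.1, without a filter and in 1 fit of all 18 libraries. After quantile normalization the RNF43 values were -0.27 and -0.38 and no longer called (limma adjusted p = 0.0647 and 0.0835). The ZNRF3 value for SNU2535 minus NCI-H2228 had adjusted p-values of 0.00999 to 0.0823 over its alternatives and was lost in 8 of 12 fits without 1 library: without SNU2535 TRI-611 replicate 1 or 3, SNU2535 DMSO replicate 2 or 3, NCI-H2228 TRI-611 replicate 2 or 3, or NCI-H2228 DMSO replicate 1 or 2. This ZNRF3 call was also lost after quantile normalization and without a filter. The LGR4 value for that pair (0.00815 to 0.105) was lost under median-ratio scaling, in 1 fit of all 18 libraries and in 5 of 12: without SNU2535 TRI-611 replicate 3, SNU2535 DMSO replicate 3, NCI-H2228 TRI-611 replicate 1 or 3, or NCI-H2228 DMSO replicate 2. For NCI-H3122 minus NCI-H2228 the LGR4 call (0.00566 to 0.0515) was lost without a filter and without TRI-611 replicate 2 of either line.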

How the results depend on the processing

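The 49 called differences of Frizzled genes were recomputed under 844 alternative values: none reversed, and 30 lost the call, over 6 differences named in the text. Fits in which a gene failed the filter gave no value and no call, and are not among these. They were the fits without 1 DMSO library of NCI-H2228 for FZD4 and of NCI-H3122 for FZD10. In each called DMSO difference of these genes, only 3 fits without 1 library gave a value. Genes called in NCI-H2228 numbered 1882, but 1052 without a filter, 1177 with plain empirical Bayes and 1152 to 1759 without 1 library; lowest without TRI-611 replicate 1 (1152), and also low without TRI-611 replicate 3 (1235) or DMSO replicate 1 (1236) or 2 (1179). Under median-ratio scaling, 3 instead of 5 Frizzled genes were called for SNU2535 minus NCI-H3122 responses. Scaling moved the split of higher and lower calls: 1731 and 2941 in SNU2535 (2500 and 2415 by quantiles), 3160 and 2054 in NCI-H3122 (2508 and 3162 by median ratios), 806 and 1076 in NCI-H2228 (1162 and 908 without mitochondrially encoded genes), 512 and 2257 for SNU2535 minus NCI-H3122 responses (1578 and 1242 by median ratios, 965 and 1412 by quantiles), 401 and 1146 for SNU2535 minus NCI-H2228 (700 and 873, 574 and 880), and 1247 and 741 for NCI-H3122 minus NCI-H2228 (959 and 1218, 1159 and 1092). In DMSO libraries it was 8270 and 5606 for SNU2535 minus NCI-H3122 (6527 and 7571 by quantiles) and 5478 and 8983 for NCI-H3122 minus NCI-H2228 (7117 and 7395 by median ratios, 7809 and 6717 by quantiles). The cause was not tested. The median of all genes moved by over 0.1 for the SNU2535 minus NCI-H3122 responses (0.126 by median ratios, 0.121 by quantiles) and for DMSO levels of SNU2535 minus NCI-H3122 (-0.176, -0.275), SNU2535 minus NCI-H2228 (0.101 by quantiles) and NCI-H3122 minus NCI-H2228 (0.267, 0.371). Reversals touched uncalled values alone. Without 1 library, FZD6 ran from -0.0014 to 0.10 in SNU2535 and from -0.017 to 0.061 in NCI-H2228, FZD3 from -0.055 to 0.17 in SNU2535, and FZD8 from -0.17 to 0.056 in NCI-H2228. The FZD6 response difference ran from -0.11 to 0.024 for SNU2535 minus NCI-H3122 (0.089 by median ratios) and from -0.020 to 0.088 for SNU2535 minus NCI-H2228. With the replicate block, 4057 genes were called in SNU2535, 4294 in NCI-H3122 and 1724 in NCI-H2228, and it removed the calls of FZD7 in NCI-H2228, PYGO1 and SP5 among those named within a line. Counting error cannot be set because depth is unknown, and genes near 1 TPM are the least certain.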
